A study of Mus musculus with 4 samples.

Results

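Amino acid transporter genes were taken as the genes of 7 solute carrier families, Slc1, Slc3, Slc6, Slc7, Slc36, Slc38 and Slc43, whose symbol stood alone on a probe set of the array. The rule read only the symbols, and it found 56 of 20461 genes, measured by 110 probe sets. Expression had been measured in the jejunal muscularis, the muscle coat of the small intestine with its nerve plexuses, of 2 smDicer KO and 2 WT mice at 3 weeks of age, with 1 GeneChip Mouse Genome array of total RNA per mouse. The smDicer KO mice, smDicer-/-;Cre-GFP/+, are described in the methods as Dicer lox/lox. The study's summary of genotypes gives them 1 lox allele and 1 deleted allele. Their Cre-eGFP transgene was driven by the promoter of the smooth muscle myosin heavy chain gene Myh11. Dicer, the enzyme that cuts miRNA precursors, was thus to be lost in smooth muscle cells (SMCs) and still expressed in the other cells of the wall. That summary lists mice with a deleted allele but no transgene as heterozygous null, so the other cells of smDicer KO mice may also lack 1 copy. The labels call the controls wild type, and the methods use WT for smMHC Cre-GFP/+ mice, which carry the transgene, and for siblings of the transgenic mice. Which of these were arrayed was not stated. The smDicer KO mice were described as female, without a separate statement for the WT mice. The mucosa and submucosa had been stripped from the muscularis before RNA was isolated.

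Amino acids cross the intestinal epithelium in several steps. Carriers of the brush border take them up from the lumen, often together with sodium or protons, and carriers of the basolateral membrane release them toward the blood, often in exchange for other amino acids. Some carriers work only as pairs, with a heavy chain of the Slc3 family and a light chain of the Slc7 family. Every other cell type, SMCs and neurons included, has its own set for supply, and the Slc6 family also holds the carriers that clear neurotransmitters from synapses.

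Each gene is given by the brightest of its probe sets, averaged over the arrays, as a log2 value after RMA normalization, so a difference of 1 is a 2-fold difference. Values under 6 were taken as near the background of the arrays, a chosen limit, since no detection calls were used. Levels of different genes come from different probes and were not compared with each other. Differences are smDicer KO minus WT and were tested with limma over all probe sets of the array. With 2 arrays against 2, an exact permutation test of a single gene cannot go below p = 0.333. No probe set of the array passed an adjusted p under 0.05 (0% of them), so calls below are at an unadjusted p under 0.05, which also picks genes by chance, and they are read against the share of all genes called.

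Of the 56 transporter genes, 12 were called higher in smDicer KO, or 21.4%, against 7.2% of all genes. One gene, Slc6a16, was called lower, against 10.5% of all genes. The unadjusted p of the 12 genes lay between 0.00287 and 0.0464 and their adjusted p between 0.223 and 0.311 (limma). Both smDicer KO arrays were above both WT arrays for 23 of the 56 genes, against 21.5% of all genes, and below both for 7, against 30.2%. The median log2 fold change was 0.11 over the 56 genes and -0.04 over all genes. Counted by probe set, 13 of 110 were called higher, against 6.41% of all, and 2 were called lower, against 9.39%. The count moved with single arrays, and the share of all genes moved with it. Without WT array 1, 3 transporters were called (5.36%, against 2.31% of all genes), and without WT array 2, 4 were called (7.14%, against 2.00%). Without smDicer KO array 1 and without smDicer KO array 2, 18 were called in each case (32.1%, against 11.2% and 9.86% of all genes). In these fits the genotype with 1 array is assumed to vary like the pair of the other genotype. Slc7a9, Slc6a19 and Slc36a1 were called with any 1 array left out. An unmoderated linear model, which takes no spread from the other probe sets, called 3 (5.36%, against 3.73% of all genes). It kept Slc36a1 and Slc7a2 of the 12 and lost the others, Slc7a9, Slc6a19 and Slc3a1 included. The transporters reached a mean of 6 in at least 1 genotype in 32 of 56 genes, and the other 24 stayed near background.

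Several values of the arrays bear on these genes. Markers of mucosal epithelium, the layer that had been stripped off, were called higher for 13 of 19 genes, against 7.2% of all genes, with a median log2 fold change of 4.16. Their summed linear signal was 21881 and 95986 on smDicer KO arrays 1 and 2, against 4299 and 6277 on WT arrays 1 and 2, and all 19 were higher on smDicer KO array 2 than on smDicer KO array 1. Pancreatic acinar markers divided the arrays in another way, with 0 of 13 called (limma) and a summed signal of 465 and 42754 on smDicer KO arrays 1 and 2, against 526 and 5985 on WT arrays 1 and 2. Enteric neuron markers were called higher for 8 of 12 genes (median 0.66), against 7.2% of all genes. Smooth muscle markers, all above 6 on every array, were called lower for 3 of 10 (median -0.46), against 10.5% of all genes. Dicer1 itself was at 7.52 and 7.36 on smDicer KO arrays, against 7.82 and 8.08 on WT arrays, a log2 fold change of -0.51 (limma unadjusted p = 0.0272, adjusted p = 0.271). RNA of the whole muscularis cannot tell apart more cells of a type and more RNA per cell. The part of the epithelial, acinar and neuronal RNA in each result below was not tested.

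The genes with the largest differences encode 2 uptake systems of the brush border. Their promoters are shown because these 3 genes had the largest differences, from 250 bases before to 50 bases after the start site in RefSeq (GRCm38.p6). Capitals mark the 1 match to the letters CAAAGTCCA, of the kind bound by the epithelial nuclear receptor HNF4, a motif chosen after the sequences had been seen.
Slc7a9, chr7:35448842-35449141, plus strand, the first of its start sites: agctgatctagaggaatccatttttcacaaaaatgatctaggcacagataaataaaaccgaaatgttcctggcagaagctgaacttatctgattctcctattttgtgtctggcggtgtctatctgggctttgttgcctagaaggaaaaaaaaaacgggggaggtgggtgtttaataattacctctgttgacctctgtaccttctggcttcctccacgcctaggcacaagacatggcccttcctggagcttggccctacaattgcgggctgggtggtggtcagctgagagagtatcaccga
Slc3a1, chr17:85028097-85028396, plus strand: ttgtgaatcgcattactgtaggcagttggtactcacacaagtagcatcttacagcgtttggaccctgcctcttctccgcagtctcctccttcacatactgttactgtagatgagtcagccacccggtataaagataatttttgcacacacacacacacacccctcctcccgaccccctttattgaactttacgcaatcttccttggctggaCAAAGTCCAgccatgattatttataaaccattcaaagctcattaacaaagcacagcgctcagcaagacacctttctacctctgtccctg
Slc6a19, chr13:73692587-73692886, minus strand: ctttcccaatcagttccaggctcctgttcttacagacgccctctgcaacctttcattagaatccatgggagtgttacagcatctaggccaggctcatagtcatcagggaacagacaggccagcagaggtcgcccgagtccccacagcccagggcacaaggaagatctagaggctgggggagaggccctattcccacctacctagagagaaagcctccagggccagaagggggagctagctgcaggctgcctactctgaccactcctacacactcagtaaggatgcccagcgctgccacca
RefSeq held promoters for 39 of the 56 genes, 60 windows in all. CAAAGTCCA, on either strand, lay in 1 of these 60 windows, that of Slc3a1, against 0.475% of all 32851 promoters. GTTAATNAT, a motif of the HNF1 type, lay in 0 of the 60 windows, against 0.801% of all promoters. A match is a match of letters in this window and says nothing of binding.

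Slc7a9 and Slc3a1 encode the light chain b0,+AT and the heavy chain rBAT of the exchanger for cystine and dibasic amino acids, the pair affected in cystinuria. Slc7a9 was at 8.50 and 10.89 on the smDicer KO arrays, against 4.48 and 5.37 on the WT arrays. Slc3a1 was at 7.54 and 9.63 on the smDicer KO arrays, against 4.40 and 4.97 on the WT arrays. Both chains were near background in both WT mice and above it in both smDicer KO mice, with the higher value on smDicer KO array 2. The log2 fold change was 4.77 for Slc7a9, or 27.3-fold (SE 0.86, 95% interval 2.49 to 7.06, limma adjusted p = 0.226) and 3.90 for Slc3a1, or 14.9-fold (SE 0.73, 95% interval 1.95 to 5.86, limma adjusted p = 0.229). Since the WT values lie near background, as they do for Slc6a19, these fold changes can be understated and their order is not settled. Without WT array 1 the unadjusted p of Slc3a1 was 0.0503 (limma), with a log2 fold change of 3.61.

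Slc6a19, which encodes B0AT1, the main sodium-coupled carrier of neutral amino acids in the brush border and the one affected in Hartnup disorder, showed the same arrangement. It was at 8.14 and 10.16 on the smDicer KO arrays, against 5.02 and 5.20 on the WT arrays, a log2 fold change of 4.04, or 16.5-fold (SE 0.69, 95% interval 2.22 to 5.87, limma adjusted p = 0.223), again over WT values near background. A second probe set of Slc6a19 was at 5.97 and 8.13 on the smDicer KO arrays, against 3.44 and 3.29 on the WT arrays, a log2 fold change of 3.69 (SE 0.73). The probe sets thus gave similar differences and the same order of the smDicer KO arrays. Slc36a1 encodes PAT1, which carries glycine, proline and alanine with protons and also works in lysosomes of many cells. It was at 8.002 and 8.17 on the smDicer KO arrays, against 7.25 and 6.87 on the WT arrays, a log2 fold change of 1.03 (SE 0.18, limma adjusted p = 0.226). Unlike the 3 genes above, Slc36a1 was above background in WT and differed by only 0.17 between the smDicer KO arrays.

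The other 5 brush border genes were not called. Slc1a1, the glutamate and aspartate carrier EAAC1, was at 5.73 and 6.63 on the smDicer KO arrays, against 5.68 and 5.92 on the WT arrays, so the genotypes overlapped. Slc1a5, the neutral amino acid exchanger ASCT2, was at 7.92 and 7.80 on the smDicer KO arrays, against 8.04 and 7.71 on the WT arrays, a log2 fold change of -0.01 with a 95% interval from -0.45 to 0.42. Slc6a6, the taurine carrier, was at 9.78 and 10.37 on the smDicer KO arrays, against 10.01 and 10.30 on the WT arrays, a log2 fold change of -0.08 with a 95% interval from -0.74 to 0.58. The small negative values of Slc1a5 and Slc6a6 turned positive after cyclic loess normalization, at 0.09 and 0.05. Slc6a14, a broad carrier known from the colon and lung, and Slc6a18, a neutral amino acid carrier known from the kidney, were under 6 on all 4 arrays. The list of 9 brush border genes therefore held 4 called higher and 0 called lower, against 7.2% and 10.5% of all genes. Its median log2 fold change was 0.38.

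**Figure D1:**
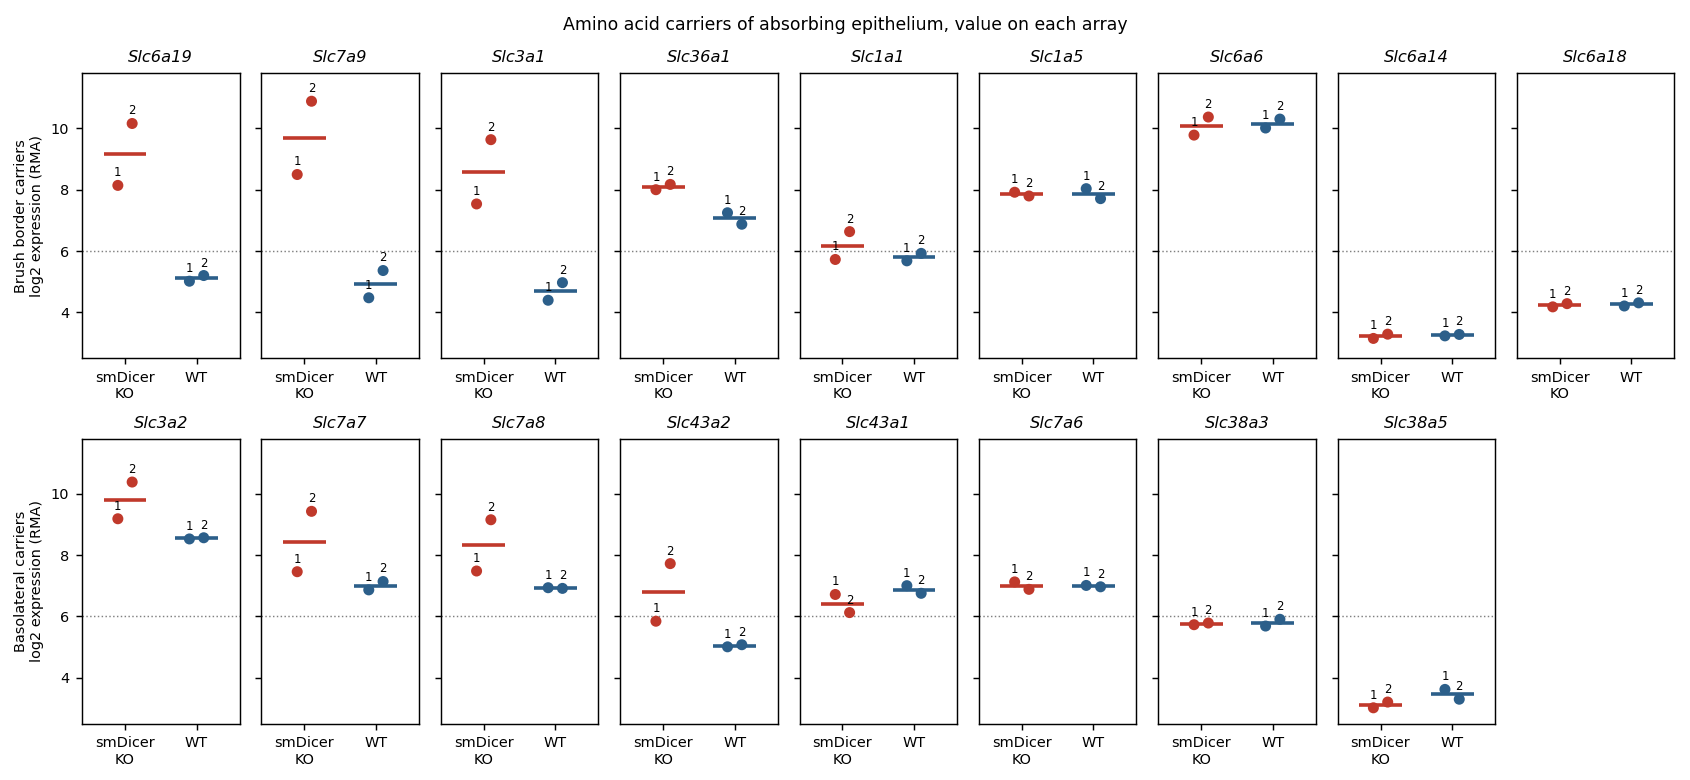
Log2 value on each of the 2 smDicer KO and 2 WT arrays for brush border (upper row) and basolateral (lower row) carriers, with a dotted line at 6, digits for the array number and a bar at each genotype's mean. Slc7a9, Slc3a1 and Slc6a19 lie under 6 on both WT arrays and above 7 on both smDicer KO arrays, and smDicer KO array 2 is the higher of the pair.

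On the basolateral side, 2 of 8 genes were called higher and 0 lower, against 7.2% and 10.5% of all genes. The median log2 fold change of this list was 0.63. Slc3a2 encodes 4F2hc, the heavy chain that the light chains of this membrane need. It was at 9.18 and 10.38 on the smDicer KO arrays, against 8.53 and 8.56 on the WT arrays, a log2 fold change of 1.24 (SE 0.42, limma adjusted p = 0.289). Without smDicer KO array 1 the log2 fold change was 1.84, and without smDicer KO array 2 it was 0.64. Slc43a2, the carrier LAT4 that lets branched-chain amino acids, methionine and phenylalanine leave the cell, was at 5.84 and 7.72 on the smDicer KO arrays, against 5.01 and 5.08 on the WT arrays. Its log2 fold change was 1.74 (SE 0.64, limma adjusted p = 0.311), or 2.68 without smDicer KO array 1 and 0.80 without smDicer KO array 2. Both calls were lost without either WT array, with an unadjusted p between 0.150 and 0.188 (limma).

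The light chains of this list that pair with Slc3a2 were not called. Slc7a5 of the same family, whose probe set carries a further symbol, was not among the transporters. Slc7a7, the chain y+LAT1 that exports dibasic amino acids and is affected in lysinuric protein intolerance, was at 7.46 and 9.43 on the smDicer KO arrays, against 6.86 and 7.14 on the WT arrays. Slc7a8, the chain LAT2 for neutral amino acids, was at 7.48 and 9.15 on the smDicer KO arrays, against 6.93 and 6.91 on the WT arrays. For both genes, by these probe sets, the smDicer KO arrays lay above the WT arrays, but the smDicer KO arrays were 1.97 and 1.67 apart, more than the distance of smDicer KO array 1 from WT. The log2 fold change was 1.44 for Slc7a7 (SE 0.67, limma unadjusted p = 0.0917) and 1.39 for Slc7a8 (SE 0.57, limma unadjusted p = 0.0642). With the replicate number as a block, Slc7a7 passed the unadjusted threshold. A second probe set of Slc7a7 gave 1.19 (SE 0.82) with overlapping genotypes, at 5.98 and 8.31 on the smDicer KO arrays, against 5.61 and 6.30 on the WT arrays. Without smDicer KO array 1 the log2 fold change was 2.43 for Slc7a7 and 2.23 for Slc7a8, and without smDicer KO array 2 it was 0.46 and 0.56. Slc7a6, the related chain y+LAT2 of many tissues, was at 7.12 and 6.88 on the smDicer KO arrays, against 7.01 and 6.96 on the WT arrays, a log2 fold change of 0.02 that was -0.03 after centring.

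The remaining basolateral carriers were not called. Slc43a1, the carrier LAT3, was at 6.71 and 6.12 on the smDicer KO arrays, against 7.001 and 6.75 on the WT arrays, a log2 fold change of -0.46 (SE 0.24, limma unadjusted p = 0.126). It was -0.75 without smDicer KO array 1 (limma unadjusted p = 0.0202) and -0.16 without smDicer KO array 2. The genotypes did not overlap for Slc43a1, whereas Slc43a2 of the same family had its higher values in smDicer KO. Slc38a3 and Slc38a5, the glutamine carriers SNAT3 and SNAT5, were under 6 on all 4 arrays, with log2 fold changes of -0.04 and -0.35, and that of Slc38a3 turned to 0.0045 after cyclic loess.

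Carriers that supply cells in general held 3 of 8 genes called higher and 0 lower, against 7.2% and 10.5% of all genes. The median log2 fold change of this list was 0.34. Slc38a4, the sodium-coupled carrier SNAT4 known from liver and placenta and imprinted in mice, was at 8.08 and 6.88 on the smDicer KO arrays, against 5.99 and 5.43 on the WT arrays. Its log2 fold change was 1.77 (SE 0.46, limma adjusted p = 0.247), or 2.37 without smDicer KO array 2 and 1.17 without smDicer KO array 1. Here smDicer KO array 1 was the higher one, by 1.20. In contrast, 8 of the 9 brush border genes and all 19 epithelial markers were higher on smDicer KO array 2. Of those 8 genes, Slc6a14 and Slc6a18 were under 6 on all arrays. A second probe set of Slc38a4 was at 6.55 and 6.12 on the smDicer KO arrays, against 5.89 and 5.87 on the WT arrays, a difference of 0.46 in the same direction (limma unadjusted p = 0.0630).

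The cationic amino acid transporters CAT1 and CAT2, encoded by Slc7a1 and Slc7a2, bring arginine and lysine into cells. Slc7a1 was at 9.63 and 9.25 on the smDicer KO arrays, against 9.03 and 8.64 on the WT arrays, a log2 fold change of 0.61 (SE 0.22, limma adjusted p = 0.304). A second probe set of Slc7a1 gave 0.48 (SE 0.22), and another lay under 6 on all arrays. Slc7a2 was at 6.31 and 6.37 on the smDicer KO arrays, against 5.84 and 5.98 on the WT arrays, a log2 fold change of 0.44 (SE 0.13, limma adjusted p = 0.262). The probe sets of Slc7a2 disagreed, since a dim one, at 3.17 and 3.44 on the smDicer KO arrays, against 3.68 and 3.84 on the WT arrays, was called lower, with a difference of -0.45. When all probe sets of a gene were averaged, neither Slc7a1 nor Slc7a2 was called, and the log2 fold change of Slc7a2 was -0.15. The calls of Slc38a4, Slc7a1 and Slc7a2 were lost without either WT array, with an unadjusted p from 0.0538 to 0.210 (limma). That of Slc7a1 was also lost without smDicer KO array 1 (limma unadjusted p = 0.158) and that of Slc7a2 without smDicer KO array 2 (limma unadjusted p = 0.0570).

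The other 5 genes of this list were not called. Slc38a2, the glutamine carrier SNAT2, whose transcript is known to increase when amino acids are scarce, was at 10.87 and 10.42 on the smDicer KO arrays, against 10.73 and 10.78 on the WT arrays, a log2 fold change of -0.11 (95% interval -0.63 to 0.40) that was 0.02 after cyclic loess. Slc38a1, the related carrier SNAT1, was at 10.86 and 10.38 on the smDicer KO arrays, against 10.39 and 10.36 on the WT arrays, a log2 fold change of 0.25 (95% interval -0.28 to 0.77). For Slc38a1 it was 0.0050 without smDicer KO array 1 and 0.49 without smDicer KO array 2 (limma unadjusted p = 0.0255). Slc1a4, the exchanger ASCT1, differed by 0.12, and by -0.02 with the mean of its probe sets. Slc7a3, the carrier CAT3, and Slc7a11, the cystine and glutamate exchanger xCT, were under 6 on all 4 arrays. Slc7a11 was at 2.51 and 2.80 on the smDicer KO arrays, against 2.86 and 2.54 on the WT arrays.

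The promoter of Slc7a11 is shown because it holds the letters TGATGNAA, the core of the amino acid response element that ATF4 binds with its partners, on both strands, beside a transcript that stayed at background. Capitals mark the matches.
Slc7a11, chr3:50443564-50443863, minus strand: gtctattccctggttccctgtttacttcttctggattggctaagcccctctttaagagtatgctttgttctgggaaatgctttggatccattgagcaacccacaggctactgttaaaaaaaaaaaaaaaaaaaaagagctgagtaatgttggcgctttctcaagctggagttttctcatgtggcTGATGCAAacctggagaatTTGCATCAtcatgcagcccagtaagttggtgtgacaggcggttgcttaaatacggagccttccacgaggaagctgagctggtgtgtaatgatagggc
The matches, TGATGCAA and TTGCATCA, start 66 and 47 bases before the start site in RefSeq (GRCm38.p6). TGATGNAA lay in 4 of the 60 transporter windows, of the genes Slc1a4, Slc7a11 and Slc7a7, against 3.97% of all promoters. The log2 fold changes of these genes were 0.12, -0.05 and 1.44 in that order, and that of Slc7a7 was not called.

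Carriers of glutamate, glycine and proline in nerve tissue held 0 of 10 called higher and 0 lower, against 7.2% and 10.5% of all genes. In a list of 10 genes, 0 calls cannot be set apart from such shares. The median log2 fold change was 0.06, and no gene of the list passed with the unmoderated model either. Slc6a17, a carrier of neuronal synaptic vesicles, was at 9.48 and 8.79 on the smDicer KO arrays, against 8.57 and 8.63 on the WT arrays, a log2 fold change of 0.53 (SE 0.26, limma unadjusted p = 0.102). Slc6a15, a neuronal carrier of proline and branched-chain amino acids, was at 8.08 and 7.44 on the smDicer KO arrays, against 7.25 and 7.23 on the WT arrays, a log2 fold change of 0.52 (SE 0.24, limma unadjusted p = 0.0938). Both were above WT on both smDicer KO arrays and higher on array 1. Of the enteric neuron markers, 0 of 12 were higher on smDicer KO array 2 than on smDicer KO array 1. That order was not particular to neurons, with 0 of 10 smooth muscle and 1 of 10 endothelium markers higher on smDicer KO array 2. All 19 epithelial markers had the opposite order. Slc6a17 and Slc6a15 passed the unadjusted threshold after cyclic loess. Without smDicer KO array 2 the log2 fold change was 0.88 for Slc6a17 and 0.84 for Slc6a15, both called, and without smDicer KO array 1 it was 0.19 and 0.20. Slc6a9, the glycine carrier GlyT1, was at 8.27 and 7.92 on the smDicer KO arrays, against 7.95 and 8.25 on the WT arrays, so the genotypes overlapped. The other 7 genes of the list, the glutamate carriers Slc1a2 and Slc1a3 of glia among them, were under 6 in both genotypes.

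Among the 7 carriers of GABA, monoamines and betaine, 1 was called higher and 0 lower, against 7.2% and 10.5% of all genes. In a list of 7 genes, 1 call cannot be set apart from such a share. Slc6a4, the serotonin transporter, which neurons and the intestinal epithelium both use, was at 5.67 and 6.92 on the smDicer KO arrays, against 4.77 and 4.80 on the WT arrays. Its log2 fold change was 1.51 (SE 0.43, limma adjusted p = 0.258), or 2.13 without smDicer KO array 1 and 0.89 without smDicer KO array 2. It was higher on smDicer KO array 2 by 1.24. The call was lost without WT array 1 (unadjusted p = 0.115, limma) and without WT array 2 (unadjusted p = 0.110, limma). The noradrenaline and dopamine transporters Slc6a2 and Slc6a3, the GABA transporters Slc6a11 and Slc6a13, and the betaine transporter Slc6a12 were under 6 in both genotypes.

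The last 14 genes, of lysosomes, of proton coupling and of less known function, had a median log2 fold change of 0.14. They held 2 called higher and 1 lower, against 7.2% and 10.5% of all genes. In a list of 14 genes, such counts cannot be set apart from those shares. Slc7a14, a lysosomal protein known from the nervous system, was at 9.34 and 8.73 on the smDicer KO arrays, against 8.23 and 8.14 on the WT arrays, a log2 fold change of 0.85 (SE 0.24, limma adjusted p = 0.255). It was higher on smDicer KO array 1, like the neuron markers and the smooth muscle markers, and the log2 fold change was 0.55 without that array. Slc38a6, a carrier of the glutamine family, was at 6.88 and 7.80 on the smDicer KO arrays, against 6.19 and 5.98 on the WT arrays, a log2 fold change of 1.26 (SE 0.34, limma adjusted p = 0.251), or 0.80 without smDicer KO array 2. Both calls were lost without either WT array, with an unadjusted p from 0.0784 to 0.114 (limma).

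Slc7a15, a further member of the light chain family, had the widest spread within a genotype. It was at 4.82 and 7.45 on the smDicer KO arrays, against 4.22 and 3.77 on the WT arrays, a log2 fold change of 2.14 (SE 0.90, limma unadjusted p = 0.0686). Without smDicer KO array 1 the log2 fold change was 3.46, and without smDicer KO array 2 it was 0.83. Slc6a8, the creatine carrier, was at 9.42 and 10.33 on the smDicer KO arrays, against 9.36 and 9.68 on the WT arrays, and the genotypes overlapped. Its log2 fold change was 0.81 without smDicer KO array 1, where it was called, and -0.10 without smDicer KO array 2. A dimmer probe set of Slc6a8 did not overlap, at 8.30 and 10.11 on the smDicer KO arrays, against 7.56 and 7.93 on the WT arrays, a log2 fold change of 1.46 (SE 0.63, limma unadjusted p = 0.0724) against 0.35 by the brighter one.

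The genes of this list that are known from lysosomes of most cells stayed close to WT. Slc36a1, which also works in lysosomes of many cells, was placed in the brush border list and was called higher, at 1.03. Slc38a9, the lysosomal arginine sensor of the mTORC1 pathway, was at 6.44 and 6.38 on the smDicer KO arrays, against 6.38 and 6.30 on the WT arrays. Slc38a7, a lysosomal glutamine carrier, was at 7.02 and 7.07 on the smDicer KO arrays, against 7.11 and 6.97 on the WT arrays. Slc43a3, a nucleobase carrier in spite of its family, was at 8.72 and 8.17 on the smDicer KO arrays, against 8.02 and 7.50 on the WT arrays, a log2 fold change of 0.69 (limma unadjusted p = 0.0615), or 0.96 without smDicer KO array 2, where it was called, and 0.41 without smDicer KO array 1. Slc7a4 differed by -0.09, which became 0.01 after cyclic loess. Slc6a16, an orphan carrier and the 1 gene called lower, was under 6 on all arrays, at 3.54 and 3.61 on the smDicer KO arrays, against 4.04 and 3.98 on the WT arrays.

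The arrays of a genotype also differed from each other. Of the 12 genes called higher, 9 were higher on smDicer KO array 2 than on smDicer KO array 1. The other 3, Slc38a4, Slc7a1 and Slc7a14, were higher on smDicer KO array 1. Over all 20461 genes, 9168 were higher on smDicer KO array 2 and 9942 on WT array 2. Over the 56 transporters, these counts were 28 and 22. The difference of array 2 minus array 1 in smDicer KO was 2.39 for Slc7a9, 2.10 for Slc3a1, 2.02 for Slc6a19 and 1.88 for Slc43a2, beside a median of 2.53 for the 19 epithelial markers. In WT the same difference was 0.89 for Slc7a9, 0.57 for Slc3a1, 0.19 for Slc6a19 and 0.07 for Slc43a2, beside a median of 0.49 for the epithelial markers, 13 of 19 of which were higher on WT array 2. Of the 9 called genes that were higher on smDicer KO array 2, 7 were also higher on WT array 2, while Slc36a1 and Slc38a6 were lower there, by -0.37 and -0.21. The second probe set of Slc6a19 was lower on WT array 2, by -0.15, as was Slc7a15, by -0.44. Slc38a4 was lower on array 2 in both genotypes, by -1.20 in smDicer KO and -0.56 in WT. These orders come from the same arrays as the differences between genotypes and were not tested.

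**Figure D2:**
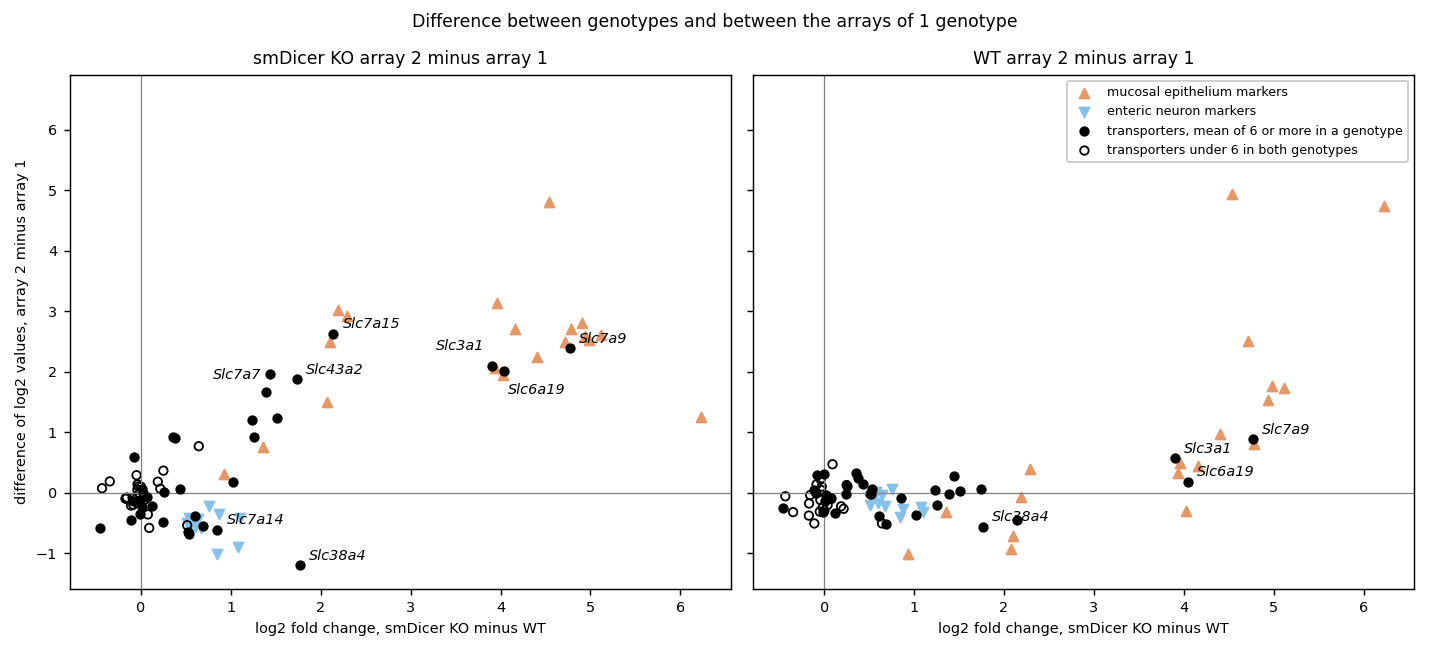
Difference of log2 values between array 2 and array 1 of smDicer KO mice (left) and of WT mice (right) against the log2 fold change (smDicer KO minus WT), for the transporters and for markers of mucosal epithelium and enteric neurons. In smDicer KO, Slc7a9, Slc3a1, Slc6a19, Slc43a2 and Slc7a15 lie among the epithelial markers above 0, while Slc7a14 lies below 0 with the neuron markers. Slc38a4 also lies below 0, at a log2 fold change of 1.77, beyond the highest of the neuron markers, 1.10.

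Partners of the carriers and the peptide side of absorption gave 8 of 11 genes called higher and 0 lower, against 7.2% and 10.5% of all genes. The median log2 fold change of this list was 3.08. Anpep, aminopeptidase N of the brush border, was at 9.99 and 11.95 on the smDicer KO arrays, against 5.86 and 6.73 on the WT arrays, a log2 fold change of 4.68. Enpep, aminopeptidase A, was at 11.10 and 12.26 on the smDicer KO arrays, against 9.64 and 9.82 on the WT arrays, a log2 fold change of 1.96. Dpp4, a dipeptidyl peptidase, was at 9.44 and 10.81 on the smDicer KO arrays, against 8.67 and 8.59 on the WT arrays, a log2 fold change of 1.50. All 3 peptidases were higher on smDicer KO array 2, as was every one of the 11 genes. Slc15a1, the peptide carrier PepT1, differed by 4.46. Slc6a20a, an imino acid carrier outside the symbol rule, differed by 3.08, and the meprin genes Mep1a and Mep1b by 3.83 and 5.51. Tmem27 and Slc6a20b were under 6 on all arrays. With the unmoderated model, 2 genes of the list were called higher, against 3.73% of all genes. The count also fell without either WT array, and so did the share of all genes.

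Genes that ATF4 is known to switch on when amino acids run short were mostly not called, with 3 of 28 called higher, 0 lower and a median log2 fold change of 0.10. Atf4 was at 10.91 and 10.65 on the smDicer KO arrays, against 10.66 and 10.62 on the WT arrays, a log2 fold change of 0.14. The tRNA synthetase genes Nars and Gars differed by 0.06 and 0.11. The 3 called genes were Chac1, which degrades glutathione, at 1.05, the pseudokinase gene Trib3 at 0.61 and the secreted glycoprotein gene Stc2 at 0.36. With 28 genes, the share of 10.7% called higher stands beside 7.2% of all genes, and the unmoderated model called 0.

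The sensing side, the Rag GTPases, the Ragulator and the other genes by which lysosomal amino acids reach mTORC1, held 0 of 18 measured genes called higher and 2 called lower, with a median log2 fold change of -0.21. The genes called lower were Rraga, a Rag GTPase, at -0.52, and Lamtor3, a Ragulator subunit, at -0.45. Lamtor1, the Ragulator subunit that holds the complex on the lysosome, differed by -0.13, and Rragc, another Rag GTPase, by -0.24. Rragd, a further Rag GTPase, ran the other way, at 8.35 and 8.70 on the smDicer KO arrays, against 8.16 and 7.56 on the WT arrays, a log2 fold change of 0.67 (limma unadjusted p = 0.0566). The share called lower lies near the 10.5% of all genes.

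**Figure D3:**
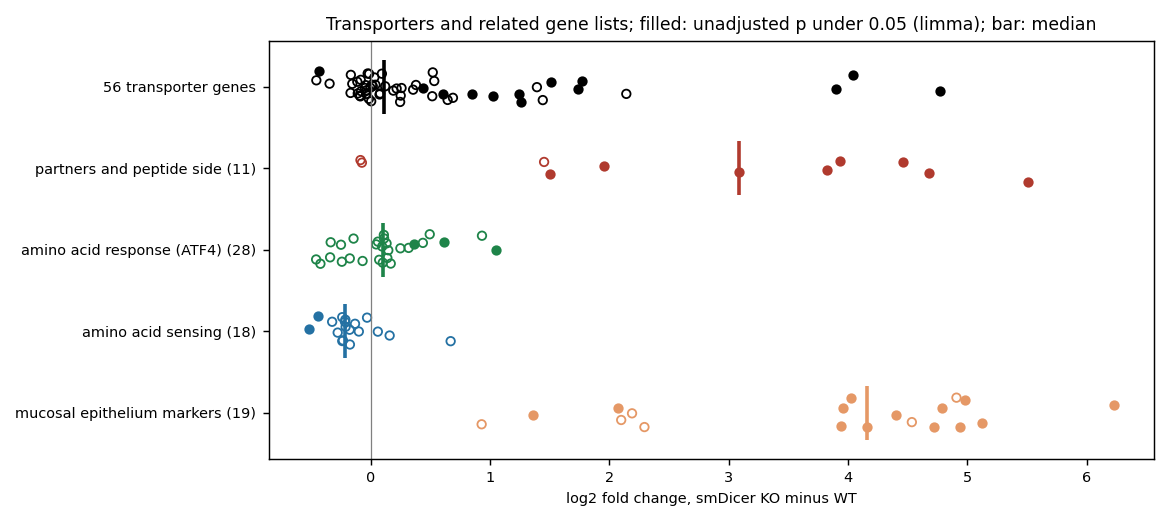
Log2 fold change (smDicer KO minus WT) of the transporters, of the partner and peptide list, of the amino acid response and sensing lists and of the epithelial markers, with filled points for genes at an unadjusted p under 0.05 (limma) and a bar at each median. The medians are 0.11, 3.08, 0.10, -0.21 and 4.16.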

How the data were processed

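Total RNA of the jejunal muscularis of 2 smDicer KO and 2 WT mice was hybridized to GeneChip Mouse Genome arrays. The authors normalized the arrays with RMA in Omicsoft Array Studio, whose version was not given in the sources used here, and the deposited values are log2, with 1 for each probe set on an array. RMA gives the probe intensities of all arrays the same distribution before they are summarized by probe set. Most of a shift of the whole transcriptome would thus be removed. RMA also compresses differences of dim probe sets. The deposited tables also hold the authors' own fold changes and p-values, which were not used, and the gene symbols of the probe sets, which were.

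A linear model was fitted over all probe sets at their default settings by lmFit and eBayes of limma 3.58.1 (R 4.3.3), smDicer KO minus WT, and p-values were adjusted by the method of Benjamini and Hochberg. The labels number the mice but do not say that equal numbers share a litter or day. The p-values rest on the spread between the 2 arrays of each genotype, drawn by eBayes toward the spread of all probe sets. Arrays give no counts, so their number limits the precision. Of the probe sets, 36804 have 1 symbol, 2005 several, 6228 none and 64 are controls. Only the first were used for genes, so that Slc7a5, whose probe set carries a further symbol, is not among the transporters. The brightest probe set on average stood for a gene. Of the 56 genes, 29 had several probe sets. Some symbols of the array are older ones and were updated through RefSeq.

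Values per array are given for the brush border and basolateral lists and for the genes with the largest differences (10 up, 10 down) and a mean of at least 6 in the higher group, and of the related lists for the 3 with the highest mean. Other transporters and related genes with values were chosen after their values were seen. The genes, lists and roles were chosen with earlier results of these data known. As alternatives, the fit was run without moderation, with the trend and robust options of eBayes, on the 18345 probe sets that reached 6 on 2 or more arrays (the filter on dim probe sets), after each array was centred on its median, after cyclic loess, with a block for the replicate number, on the mean of all probe sets and with each array left out in turn. The values of some single genes are not reported here. The script was tested on simulated data. Python 3.11.15 with pandas 2.3.3 and matplotlib 3.10.9 made the tables and figures.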

Additional observations from a re-analysis of the deposited data

How the results depend on the processing

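The 12 transporters called higher (7.2% of all genes) were 3 with the unmoderated linear model (3.73% of all genes), 11 with trend and robust (6.79%), 10 with the filter on dim probe sets (9.52%), 12 after centring (6.23%), 16 after cyclic loess (9.91%), 14 with the replicate number as a block (7.63%), 10 with the mean of all probe sets (6.21%) and from 3 to 18 with 1 array left out (2.00% to 11.2%). All 12 stayed above 0 in each setting in which they were measured, except Slc7a2 with the mean of all probe sets (-0.15). The gene called lower was lost with the filter (0) and ranged from 0 to 2 with an array left out. At an adjusted p under 0.05, 0 became 4 without smDicer KO array 1 (Slc43a2, Slc6a19, Slc6a4 and Slc7a8), from a range of 0 to 4, where 258 genes passed. In that fit smDicer KO has 1 array, assumed to vary like the WT pair, and the pair of smDicer KO arrays lies further apart for these genes than the WT pair does. The partner list, with 8 called higher, had 2 with the unmoderated model and from 3 to 9 with an array left out. The response list, with 3, had 0 with the unmoderated model, 1 with the filter and from 1 to 3 with an array left out. The sensing list, with 0, had 1 with trend and robust, 1 after cyclic loess and from 0 to 1 with an array left out.

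With the filter, which leaves 28 of the 56 genes and keeps a gene dim in 1 genotype where it is high in the other, the median log2 fold change was 0.48 over the transporters, 2.46 for the brush border, 1.24 for the basolateral, 0.52 for the nerve tissue and 0.31 for the last list, and no gene of the GABA and monoamine list was left. The median over the transporters was 0.063 after centring, 0.17 after cyclic loess and 0.063 with the mean of all probe sets, which gave 0.12 for cell supply. Leaving out an array gave 0.073 to 0.17 over the transporters, 0.046 to 0.83 for the brush border, -0.063 to 0.13 for nerve tissue, 0.17 to 0.45 for cell supply, 0.044 to 0.17 for the last list and 0.30 to 0.91 for the basolateral list.

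Among single genes near 0, cyclic loess turned Slc1a5 (0.092), Slc38a3 (0.0045), Slc6a6 (0.046), Slc38a2 (0.015), Slc7a4 (0.0087) and Slc6a9 (0.11) positive. The mean of all probe sets turned Slc1a5 (0.076), Slc6a14 (0.12), Slc38a2 (0.049) and Slc7a4 (0.041) positive and Slc7a6 (-0.022), Slc1a4 (-0.018) and Slc38a9 (-0.12) negative. Centring turned Slc7a6 (-0.027) and Slc38a7 (-0.034) negative. Leaving out an array gave Slc1a1 -0.077 to 0.83, Slc1a5 -0.18 to 0.15, Slc38a3 -0.15 to 0.071, Slc6a14 -0.11 to 0.032, Slc6a18 -0.080 to 0.026, Slc6a6 -0.38 to 0.21, Slc7a6 -0.11 to 0.14, Slc38a2 -0.34 to 0.12, Slc6a9 -0.18 to 0.17, Slc1a4 -0.050 to 0.29, Slc6a8 -0.10 to 0.81, Slc7a11 -0.21 to 0.11 and Slc38a7 -0.062 to 0.079. The cause of these shifts was not tested.

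The replicate block added Slc43a3 and Slc7a7 to the calls and lost none. Deviations of same-numbered arrays correlated at 0.25 over all probe sets and at 0.40 over those kept by the filter on dim probe sets. With 2 pairs the numbers were not taken as pairs. The median of all genes was 0.01 after cyclic loess and -0.08 after centring. For 24 of the 56 genes signal over background limits what can be seen.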
